A study of Homo sapiens with 13 samples.

Results

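Intermediate filaments are the third filament system of animal cells, beside actin filaments and microtubules, and each tissue builds them from its own genes. The 10 genes described here are NEFL, NEFM, NEFH and INA, which encode the neurofilament subunits of neurons, NES (nestin, of neural progenitors), VIM (vimentin, of mesenchymal cells), KRT8 and KRT18 (the keratin pair of simple epithelia), KRT10 (a keratin of stratified epithelia) and LMNA (lamins A and C of the nuclear lamina). They were taken by symbol, 10 of 60591 rows of the gene count table, because neurofilament transcripts were abundant in these cells while the keratins of squamous epithelium were nearly absent. Their levels relative to each other are therefore given as a description, with no test. That reason does not involve the changes of each gene between treatments, but the members were chosen with earlier results of these data known.

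RNA was sequenced from 13 libraries of cells labelled TE11, an established line from a human esophageal squamous cell carcinoma, all grown in medium with serum and collected after 48 h. The 4 vehicle libraries received 0.1% DMSO, 3 libraries received 10 µM chloroquine, 3 received 25 µM 5-fluorouracil (5-FU), and 3 received both drugs at those doses (the combination). Chloroquine, a weak base, is trapped in lysosomes and impairs the breakdown of autophagic cargo. The nucleobase analogue 5-FU disturbs the making of DNA and the processing of RNA. The question behind the design, from the series' title, concerns chloroquine as an aid to 5-FU and the role of p53. The labels do not tell whether the libraries of a group came from different cultures, and the p-values below therefore reflect library-to-library spread, which may be technical.

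Filament proteins assemble in fixed partnerships. NEFL is the core subunit with which NEFM, NEFH and INA co-assemble, and the long tails of NEFM and NEFH project from the filament. Nestin needs a partner such as vimentin. Every keratin filament pairs a type I with a type II keratin, KRT18 with KRT8 and KRT10 with KRT1 or KRT2, and an unpaired keratin is usually degraded. A-type lamins come from LMNA and B-type lamins from LMNB1 and LMNB2.

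Total counts ran from 17834539 to 23679833 per library, and 19514 genes passed the filter on low counts, all 10 filament genes among them. Levels are CPM, that is counts scaled to a common library size, here with TMM factors, and values after ± are the SD between libraries for levels and the SE for log2 fold changes. In 5 libraries (vehicle 4, chloroquine 1 and 2, 5-FU 2 and combination 2) 153 to 741 counts of COL1A2, a collagen gene of fibroblasts, were found, against 1 to 7 in the other 8. The summed fibroblast markers reached 30.3 to 129 CPM in those 5 libraries and at most 29.9 in the other 8. In the other 8, HBB, LYZ and MYH2 had at most 2 counts, but COL1A1 reached 560, ACTA1 64, COL3A1 50 and HBA2 42. The summed red-cell markers overlapped, with 2.16 to 15 CPM in the 5 libraries and 0.742 to 3.34 in the other 8. Summed leukocyte markers were at 1.08 to 17.5 CPM against 0.22 to 0.812, and muscle markers at 3.73 to 14.3 CPM against 1.26 to 3.47. Summed pancreas markers reached 334 counts in the 5 libraries and 4 in the other 8, but at most 3 in any combination library. The filament genes differed by between -0.15 (KRT8) and 0.11 (NEFH) log2 units between the 5 libraries and the rest of their groups. Without these 5 libraries, and within the 5 alone, each change was recomputed, and the values that crossed the threshold are given beside the results or, for the interaction, among those for a closer look.

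Most transcripts that define squamous epithelium were at or near 0 in these cells despite the label. Of 22 keratin rows of stratified epithelia, 7 had no count in any library, 19 had at most 10 counts in every library, and only KRT10 and KRT17 passed the filter. KRT4 was at 0 throughout, KRT5 and KRT6A reached 2 counts, KRT13 reached 5, and KRT14 reached 12 in one library and 4 in the 8 libraries with little COL1A2. TP63, the transcription factor of squamous basal cells, reached 3 counts, DSG3 and IVL reached 1, and SPRR3 stayed at 0. S100A2, also listed for squamous cells, passed the filter and reached 23 counts, with a mean of 0.0659 CPM in vehicle. Markers of epithelium in general were uneven. CDH1 and EPCAM were at 2.66 and 2.05 CPM in vehicle, while ESRP1, GRHL2 and CLDN4 reached 13, 2 and 18 counts. Desmosomal genes were not all low: DSC3, a desmosomal cadherin also known from stratified epithelia, was at 121 CPM in vehicle, DSP (desmoplakin) at 176 CPM and DSG2, a cadherin of many epithelia, at 306 CPM, while PKP1 reached 2 counts. A count of 0 allows up to 3 counts, or 0.127 to 0.168 CPM, depending on the library.

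Some neuronal transcripts, by contrast, were plentiful in every library. Of 22 genes listed for neurons, 17 passed the filter, led by UCHL1 (347 CPM in vehicle), SYP (synaptophysin, 56.5 CPM), ENO2 (neuronal enolase, 54.1 CPM) and NCAM1 (37.0 CPM). The defining markers were uneven. SYT1 was at 13.7 CPM in vehicle, and TUBB3, MAP2, GAP43 and RBFOX3 had between 0.746 and 3.86 CPM. The epithelial markers CDH1 and EPCAM lay within that same range. STMN2 was at 0.244 CPM. SNAP25 was at 0.0903 CPM, a mean over the 4 vehicle libraries that is less than 3 counts in a single library would give. In all, 5 genes of the list had at most 10 counts in every library, among them DCX, which reached 8 counts, and ELAVL4, which reached 1. The cells are therefore named here by their label and their leading filament genes only. Of 7 listed markers of astrocytes and oligodendrocytes, 3 had at most 10 counts in every library (MOG at most 1), and GFAP reached 19 counts, AQP4 43, MBP 86 and ALDOC 373. ALDOC, an aldolase of astrocytes and some neurons, was at 7.29 CPM in vehicle, above TUBB3, MAP2, GAP43 and RBFOX3.

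**Figure D1:**
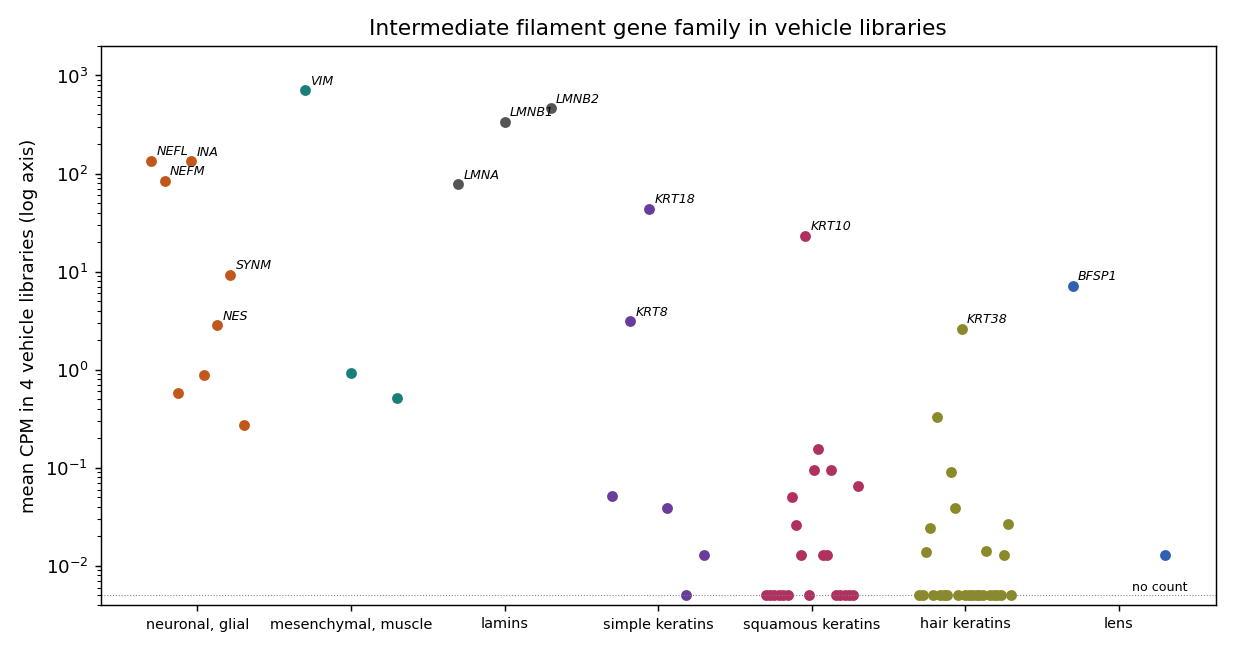
Mean CPM in the 4 vehicle libraries (log axis) of the intermediate filament genes, 1 point per gene, grouped by the tissue in which each class is known; points on the dotted line had no count. VIM lies at 704 CPM and NEFL and INA at 135 and 133 CPM, while KRT10 at 23.3 CPM is the sole keratin of stratified epithelia above 0.2 CPM.

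Among the members themselves, vimentin was the leading filament transcript. Per kilobase of the principal transcript, the vehicle libraries held 330 ± 3.13 CPM of VIM (n = 4), then 41.2 ± 1.16 of INA, 33.1 ± 0.809 of NEFL and 28.1 ± 0.706 of KRT18. LMNA followed at 24.5 ± 1.14, NEFM at 21.0 ± 0.933 and KRT10 at 11 ± 1.36. The last 3 were KRT8 at 1.46 ± 0.112, NES at 0.515 ± 0.109 and NEFH at 0.152 ± 0.0282. No pair of neighbours in this order overlapped in vehicle. Under 5-FU the order changed: LMNA, at 43.7 ± 6.44 CPM per kilobase (n = 3), and KRT18, at 35.2 ± 4.19, both stood above NEFL at 18.2 ± 0.658, and the ranges of LMNA and KRT18 overlapped. Under the combination NEFL was at 31.8 ± 0.99 (n = 3), still below LMNA and KRT18. These lengths come from GENCODE release 29 and assume that 1 principal transcript carries the counts.

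Promoter sequence from RefSeq (GRCh38.p14) was at hand for 6 of the 10 genes, INA, VIM, NES, KRT8, KRT10 and LMNA. It is shown for 5 of them because these genes rose under 5-FU by very different amounts. Each line gives the 120 bases before the annotated start, 5′ to 3′ on the gene's own strand, with capitals for a match to the GC box GGGCGG or the TATA box TATAAA on either strand.
INA (chr10:103277018-103277137, plus strand): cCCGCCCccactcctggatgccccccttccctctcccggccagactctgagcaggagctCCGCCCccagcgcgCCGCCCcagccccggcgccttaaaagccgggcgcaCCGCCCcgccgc
VIM (chr10:17228121-17228240, plus strand): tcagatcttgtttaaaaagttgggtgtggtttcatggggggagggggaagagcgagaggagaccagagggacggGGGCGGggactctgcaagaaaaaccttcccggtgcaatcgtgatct
NES (chr1:156677408-156677527, minus strand): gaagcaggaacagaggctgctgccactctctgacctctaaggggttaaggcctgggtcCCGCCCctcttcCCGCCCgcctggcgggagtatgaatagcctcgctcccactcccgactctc
KRT8 (chr12:52926470-52926589, minus strand): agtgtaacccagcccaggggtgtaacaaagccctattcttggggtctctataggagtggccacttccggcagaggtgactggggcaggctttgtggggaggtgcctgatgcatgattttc
KRT10 (chr17:40822615-40822734, minus strand): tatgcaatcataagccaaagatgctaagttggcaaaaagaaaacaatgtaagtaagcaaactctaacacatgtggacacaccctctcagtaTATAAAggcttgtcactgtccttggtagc

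The 3 promoters of neural and mesenchymal filament genes carried GC boxes, 4 in INA, 2 in NES and 1 in VIM, and so did each of 3 annotated starts of LMNA. Neither keratin promoter had one in the 250 bases before its start, and KRT10 alone had TATAAA. Among 35116 RefSeq promoters of the same length, 42.6% held GGGCGG and 10.7% held TATAAA. A p53 half-site lay upstream of the bases shown in KRT8 and in KRT10, a motif present in 5.57% of all promoters, and the AP-1 site TGANTCA (6.57% of promoters) occurred in none of the 6 genes. Motifs of different kinds did not overlap. These matches describe letters only.

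Of the 10 filament genes, all 10 differed from vehicle under 5-FU, 9 under the combination and 5 under chloroquine (edgeR's quasi-likelihood test, Benjamini-Hochberg adjusted p under 0.05 over all genes tested). The drugs moved much of the transcriptome, so these counts need their background: 60.3% of all tested genes were called under 5-FU, 55.4% under the combination and 39.4% under chloroquine. Of the members, 8 rose and 2 fell under 5-FU, where 30.8% of all genes rose and 29.5% fell. Under the combination 8 rose and 1 fell, against 28.1% and 27.2% of all genes, and under chloroquine 3 rose and 2 fell, against 20.3% and 19.1%. The members' median log2 fold change was 0.66 under 5-FU, 0.70 under the combination and -0.01 under chloroquine, beside medians of 0.01, 0.006 and 0.023 over all genes. With library size as the sole scaling, those medians over all genes became 0.202, 0.153 and 0.118, and the members' calls against vehicle kept their number and direction. A called change of at least 1 log2 unit was found for 3 members under 5-FU (NEFH, NES and KRT8; 14% of all genes), for KRT8 and KRT10 under the combination (11.4%) and for no member under chloroquine (4.93%). The 3 comparisons share the vehicle libraries. In RNA from whole cultures, a change in the number of cells that express a gene and a change in its RNA per cell cannot be told apart.

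The libraries of 5-FU and vehicle did not overlap for any of the 10 members, nor those of the combination and vehicle for 8, where 58.1% and 58.8% of all genes had groups that did not overlap. Under chloroquine the groups were apart for 4 members, against 47.8% of all genes. In the 8 libraries with little COL1A2, 9 members were called under 5-FU, 8 under the combination and 4 under chloroquine. In the 5 libraries alone, 10, 8 and 5 were called, with 1 library each of vehicle, 5-FU and combination, which are assumed to vary like the 2 chloroquine libraries.

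**Figure D2:**
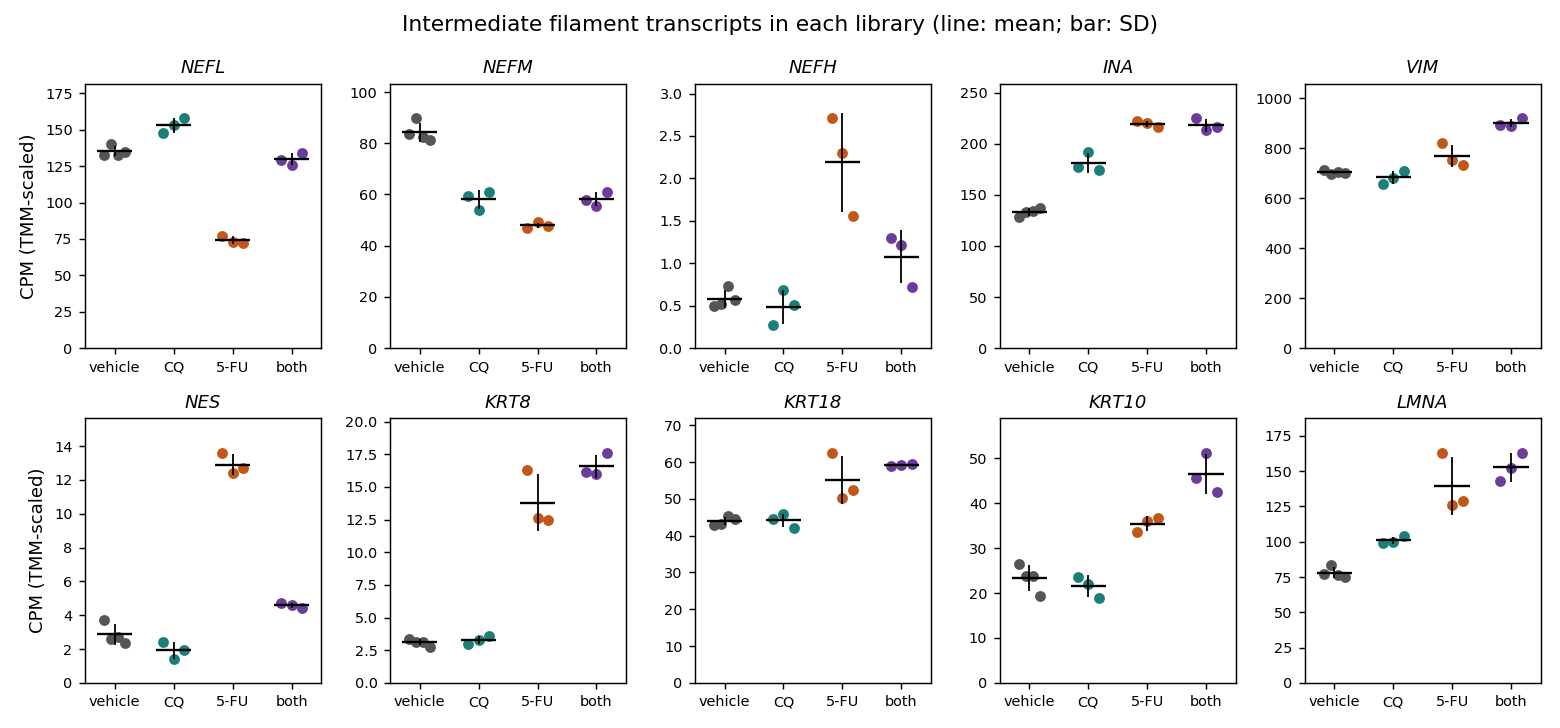
CPM (TMM-scaled) of each filament gene in each of the 13 libraries, 1 panel per gene with its own axis from 0; horizontal lines are group means and vertical bars the SD. NEFL is lowest in the 3 5-FU libraries (72.5 to 77.2 CPM), NES is highest there (12.4 to 13.6 CPM), and KRT8 is high in both groups with 5-FU.

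The core neurofilament transcript NEFL fell under 5-FU and not under the combination. NEFL was at 133, 140, 133 and 135 CPM in vehicle, 77.2, 72.6 and 72.5 in 5-FU, and in the combination 129, 126 and 134. Every 5-FU library lay far below every other library, while the combination overlapped vehicle. The log2 fold change was -0.87 ± 0.0468 under 5-FU (edgeR adjusted p = 2.17e-09) and -0.06 ± 0.0454 under the combination (adjusted p = 0.28). Set directly against 5-FU, the combination was higher by 0.81 ± 0.0493 (adjusted p = 5.23e-08). Chloroquine alone gave 148, 153 and 158 CPM, above all vehicle libraries, a rise of 0.18 ± 0.0452 (adjusted p = 0.00651) that missed the threshold without the 5 libraries holding COL1A2 (0.22, adjusted p = 0.072), without chloroquine 3 (0.14, adjusted p = 0.0524) and with no filter on low counts (0.17, adjusted p = 0.0547).

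NEFM, which supplies one of the projecting tails, fell under all 3 treatments. It was at 83.5, 89.8, 82.6 and 81.4 CPM in vehicle, 59.5, 53.8 and 60.8 in chloroquine, 47.0, 49.1 and 47.8 in 5-FU, and in the combination 58.0, 55.4 and 60.9. The vehicle libraries were the highest and the 5-FU libraries the lowest, and chloroquine and the combination covered nearly the same range. The log2 fold change was -0.54 ± 0.0577 under chloroquine (adjusted p = 7.71e-06), -0.81 ± 0.0583 under 5-FU (adjusted p = 3.38e-08) and -0.54 ± 0.0575 under the combination (adjusted p = 2.18e-06). The combination exceeded 5-FU by 0.28 ± 0.0618 (adjusted p = 0.00282; 0.17, adjusted p = 0.0649 in the 5 libraries alone). Against chloroquine it differed by 0.00 ± 0.0615 (adjusted p = 0.984).

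The proportion of the 2 subunits was compared next. NEFL had 1.61 ± 0.0411 counts per NEFM count in vehicle (n = 4), 1.55 ± 0.0833 in 5-FU, 2.64 ± 0.18 in chloroquine and 2.23 ± 0.0416 in the combination (n = 3 each). All chloroquine and combination libraries lay above all vehicle and 5-FU libraries. In exact permutation tests of log2 ratios (two-sided, 25 comparisons of 5 ratios), the NEFL to NEFM ratio differed from vehicle by 0.72 under chloroquine and by 0.48 under the combination, both with p = 0.0286, the smallest p that 4 against 3 libraries allow, and an adjusted p of 0.065. Under 5-FU it differed by -0.06 (exact permutation p = 0.286, adjusted p = 0.298). An exact permutation test of 3 against 3 libraries cannot go below p = 0.1.

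INA, the fourth neuronal subunit, rose under all 3 treatments, whereas NEFM fell under all 3 and NEFL was called down against vehicle only under 5-FU. Its levels were 128, 133, 134 and 137 CPM in vehicle, 177, 192 and 174 in chloroquine, 222, 220 and 216 in 5-FU, and in the combination 225, 213 and 216. Chloroquine libraries were above vehicle, and both groups with 5-FU were above chloroquine. The log2 fold change was 0.44 ± 0.0459 under chloroquine (adjusted p = 5.8e-06), 0.72 ± 0.0456 under 5-FU (adjusted p = 1.04e-08) and 0.71 ± 0.0456 under the combination (adjusted p = 1.5e-08). The combination differed from 5-FU by -0.01 ± 0.0486 (adjusted p = 0.906). INA and NEFL had nearly equal counts in vehicle, 0.985 ± 0.0355 INA counts per NEFL count (n = 4), but 2.96 ± 0.0819 in 5-FU and 1.68 ± 0.0651 in the combination (n = 3 each). This ratio differed from vehicle by 1.59 log2 units under 5-FU (exact permutation p = 0.0286, adjusted p = 0.065).

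**Figure D3:**
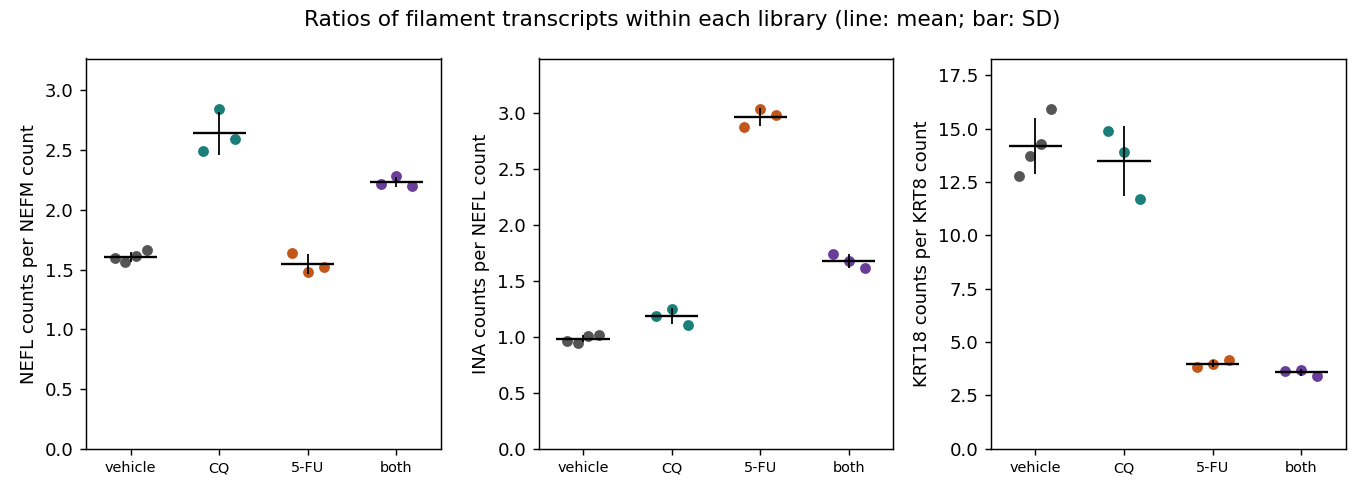
Counts of one filament transcript per count of another in each library: NEFL per NEFM, INA per NEFL and KRT18 per KRT8, with group means (lines) and SD (bars). INA per NEFL is 0.985 in vehicle and 2.96 in 5-FU, and KRT18 per KRT8 is 14.2 in vehicle, 3.99 in 5-FU and 3.58 under both drugs.

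The heavy subunit NEFH was rare, with 6 to 56 counts per library. It had 9, 9, 15 and 11 counts in vehicle, 6, 15 and 9 in chloroquine, 56, 50 and 39 in 5-FU, and in the combination 30, 27 and 16. The 5-FU libraries held the most, and the lowest combination library, at 0.722 CPM, lay just under the highest vehicle library, at 0.730. NEFH rose by 1.90 ± 0.305 under 5-FU (adjusted p = 8.32e-05). Its share of the NEFL, NEFM, NEFH and INA counts went from 0.163% ± 0.0312 (n = 4) to 0.635% ± 0.161 (n = 3). Under the combination the change was 0.89 ± 0.318 (adjusted p = 0.0276), which missed the threshold with DESeq2 (adjusted p = 0.0522), limma-voom (0.0528), the replicate number as a block (0.0618), in the 8 libraries (0.0993), in the 5 libraries (0.119), and without vehicle 1, 2 or 4 or combination 1 or 2 (0.0501 to 0.116).

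NEFL, NEFM, NEFH, INA and the other genes of their class (PRPH, NES, SYNM and GFAP) were also counted together. The summed level was similar in vehicle and 5-FU and higher in both groups with chloroquine. It was 359 to 379 CPM in vehicle, 365 to 378 in 5-FU, 401 to 414 in chloroquine and 411 to 430 in the combination. The sums of vehicle and 5-FU overlapped although 6 of the 8 genes were called under 5-FU, 4 up and 2 down, where 60.3% of all genes were called. PRPH, peripherin of peripheral neurons, stayed at about 1 CPM in every group (0.876, 0.866, 1.01 and 1.17 CPM in vehicle, chloroquine, 5-FU and the combination) and was called in no comparison with vehicle.

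Vimentin, the most abundant member, moved little. VIM was at 713, 698, 705 and 700 CPM in vehicle, 657, 682 and 711 in chloroquine, 821, 755 and 735 in 5-FU, and in the combination 892, 891 and 921. The combination libraries were above all others. The rise was 0.36 ± 0.0414 under the combination (adjusted p = 4.73e-06) and 0.13 ± 0.0415 under 5-FU (adjusted p = 0.0142). The smaller of these was not called without 5-FU 1 (0.08, adjusted p = 0.0803), in the 8 libraries (0.13, adjusted p = 0.0707), with the replicate block (0.13, adjusted p = 0.0546) or with no filter (0.11, adjusted p = 0.277). Under chloroquine VIM changed by -0.04 ± 0.0416 (adjusted p = 0.454). The antisense row VIM-AS1 held 35 to 71 counts per library, and since the counting is not stated to use strand, reads of the 2 genes cannot be told apart there.

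Nestin showed the widest swing among the treatments. NES was at 3.74, 2.62, 2.72 and 2.37 CPM in vehicle, 2.43, 1.40 and 1.92 in chloroquine, 13.6, 12.4 and 12.7 in 5-FU, and in the combination 4.72, 4.63 and 4.42. The 5-FU libraries stood apart from all others, and the combination lay between them and vehicle without overlap. NES rose 4.49-fold under 5-FU (log2 2.17 ± 0.153, adjusted p = 2.82e-08) and 1.60-fold under the combination (log2 0.68 ± 0.162, adjusted p = 0.0024). The combination was lower than 5-FU by -1.49 ± 0.158 on the log2 scale (adjusted p = 7.59e-06). The summed astrocyte and oligodendrocyte markers were also highest in 5-FU, at 19.6 to 20 CPM against 10.7 to 12.1 in vehicle, 11.4 to 13.5 in chloroquine and 12.2 to 13.7 in the combination. ALDOC carried this, with 14.8 CPM in 5-FU (log2 1.02 ± 0.0792, adjusted p = 6.97e-08), and its part in the NES values was not tested. Under chloroquine NES changed by -0.58 ± 0.181 (adjusted p = 0.0211) with 1 overlapping library, and it missed the threshold without vehicle 1 (-0.42, adjusted p = 0.0652) or chloroquine 2 (-0.38, adjusted p = 0.117), with only the 2 groups fitted (-0.56, adjusted p = 0.0662), in the 8 libraries (-0.66, adjusted p = 0.0918) and in the 5 (-0.31, adjusted p = 0.467).

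Both genes of the simple-epithelial pair rose under 5-FU, KRT8 by the larger factor. KRT8, the type II partner, was at 3.35, 3.14, 3.16 and 2.78 CPM in vehicle and 2.98, 3.30 and 3.62 in chloroquine, but 16.3, 12.6 and 12.5 in 5-FU, and in the combination 16.1, 16.0 and 17.6. The groups with 5-FU lay far above those without, and overlapped each other. KRT8 rose 4.44-fold under 5-FU (log2 2.15 ± 0.11, adjusted p = 1.39e-09) and 5.32-fold under the combination (log2 2.41 ± 0.109, adjusted p = 5.07e-10). The difference between these was 0.26 ± 0.102 (adjusted p = 0.0561), and it passed the threshold without 5-FU 1 (0.39, adjusted p = 0.00398), without vehicle 4 (0.26, adjusted p = 0.0493), with limma-voom (0.28, adjusted p = 0.0308) and with a term for the 5 libraries (0.27, adjusted p = 0.0261).

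KRT18, the type I partner, was at 43.0, 43.1, 45.3 and 44.4 CPM in vehicle, 44.5, 45.8 and 42.2 in chloroquine, 62.5, 50.3 and 52.3 in 5-FU, and in the combination 58.9, 59.2 and 59.5. It rose by 0.32 ± 0.0669 under 5-FU (adjusted p = 0.000773) and by 0.43 ± 0.0666 under the combination (adjusted p = 7.49e-05). The combination differed from 5-FU by 0.11 ± 0.0704 (adjusted p = 0.256), a value that was called without 5-FU 1 (0.20, adjusted p = 0.00651) and in the 5 libraries alone (0.24, adjusted p = 0.00617). The library 5-FU 1 was the highest of its group for KRT8, KRT18, VIM and LMNA. KRT18 outnumbered KRT8 by 14.2 ± 1.3 counts to 1 in vehicle (n = 4) and by 3.99 ± 0.176 and 3.58 ± 0.168 to 1 in 5-FU and the combination (n = 3 each). The KRT8 to KRT18 ratio differed from vehicle by 1.82 log2 units under 5-FU and 1.97 under the combination (exact permutation p = 0.0286 each, adjusted p = 0.065).

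Counts of this pair carry an uncertainty from pseudogenes, near-identical gene copies that can share reads. The 51 rows named as KRT8 pseudogenes together held 56.8 to 79.2% of the sum of KRT8 and pseudogene counts in vehicle and chloroquine, 44.6 to 52.4% in 5-FU and 39.6 to 50.3% in the combination. In vehicle 1, for example, KRT8 had 61 counts and its pseudogenes 101. One of them, KRT8P5, had 42 to 86 counts in the 5 libraries with COL1A2 and at most 3 in the others. For KRT18, 67 pseudogene rows held 12.5 to 16.8%. How the counting divided such reads is not known from the labels, and its part in the KRT8 values was not tested.

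KRT10 rose most under the combination. It was at 26.4, 23.7, 23.7 and 19.4 CPM in vehicle, 23.6, 22.1 and 19.0 in chloroquine, 33.6, 36.1 and 36.7 in 5-FU, and in the combination 45.7, 51.2 and 42.6. The 3 levels, of vehicle with chloroquine, of 5-FU, and of the combination, did not overlap. The log2 fold change was 0.61 ± 0.0976 under 5-FU (adjusted p = 8.74e-05) and 1.00 ± 0.0961 under the combination (adjusted p = 7.62e-07), and the combination exceeded 5-FU by 0.39 ± 0.1 (adjusted p = 0.00679). Under chloroquine the value of -0.11 ± 0.102 (adjusted p = 0.435) had opposite signs in the 2 kinds of library, -0.38 in the 8 (adjusted p = 0.0318) and 0.23 in the 5 (adjusted p = 0.0421). The type II partners of KRT10 were not detected, since KRT1 and KRT2 had no count in any of the 13 libraries.

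The remaining keratins were few. Of 55 keratin rows, 19 had no count in any library, 47 had at most 10 in every library, and 7 were tested. KRT7 and KRT19, other keratins of simple epithelia, reached 4 counts each. KRT17, a keratin of stressed and basal epithelium, was at 0.0938 CPM in vehicle and at 1.11 CPM in 5-FU and 1.05 in the combination. The vehicle value is a mean over 4 libraries and is less than 3 counts in a single library would give. Of 18 genes of epithelial and basal squamous cells, 9 were tested. Under 5-FU 5 of them rose and 1 fell, and under the combination again 5 rose and 1 fell, where 30.8% and 28.1% of all genes rose. Among them LAMB3, a laminin chain, went from 0.414 CPM in vehicle to 1.81 and 6.41 CPM (log2 2.12 ± 0.282 and 3.94 ± 0.264, adjusted p = 1.46e-05 and 2.15e-08). Of 16 genes of squamous differentiation, 4 were tested and 3 rose under 5-FU, ECM1 from 2.58 to 8.36 CPM (log2 1.70 ± 0.141, adjusted p = 1.4e-07). Genes of both lists could pass the filter through a drug group alone. S100A2, ST14 and SBSN were at 0.0659, 0.276 and 0.276 CPM in vehicle and at 0.877, 0.903 and 1.01 in the combination. The counts of rises are therefore weighted towards genes high under a drug and are a description.

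**Figure D4:**
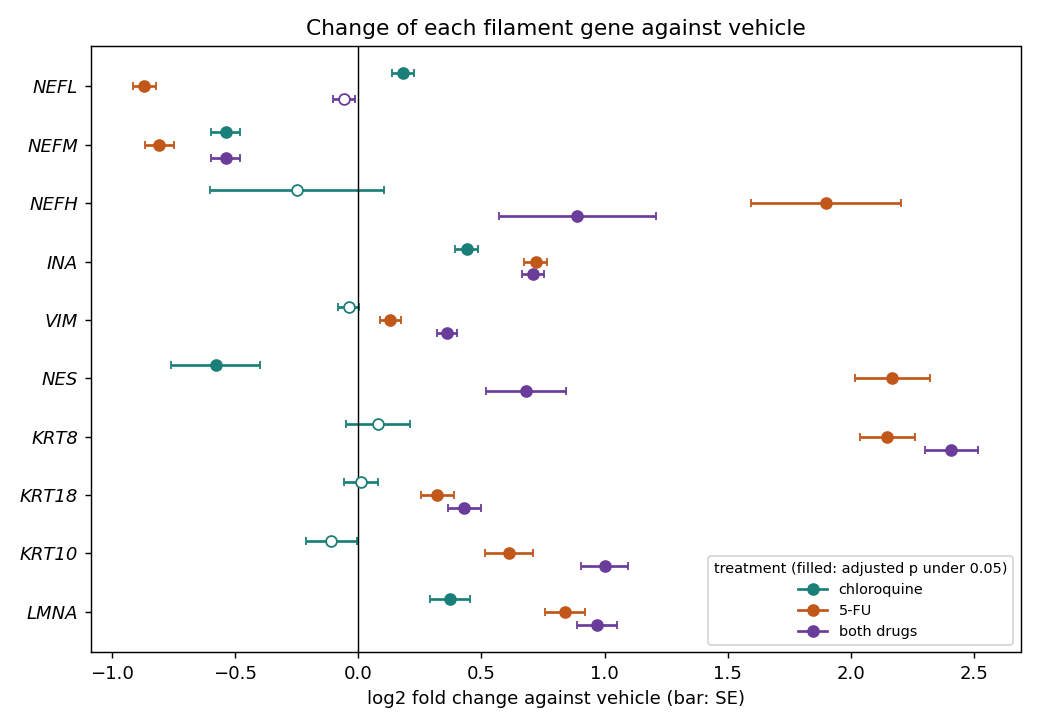
Log2 fold change against vehicle of each filament gene under chloroquine, 5-FU and both drugs, with the SE as bars; filled points have an adjusted p under 0.05. KRT8, NES and NEFH lie near 2 under 5-FU, KRT8 stays at 2.41 under both drugs while NES is at 0.68, and NEFL and NEFM are the members below 0 under 5-FU.

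A-type and B-type lamins moved in opposite directions. LMNA was at 77.4, 83.4, 76.6 and 75.1 CPM in vehicle, 99.3, 100 and 104 in chloroquine, 163, 126 and 129 in 5-FU, and in the combination 143, 152 and 163. All treated libraries were above all vehicle libraries. LMNA rose by 0.37 ± 0.0813 under chloroquine (adjusted p = 0.00223), 0.84 ± 0.0803 under 5-FU (adjusted p = 5.88e-07) and 0.97 ± 0.0801 under the combination (adjusted p = 1.74e-07). The combination differed from 5-FU by 0.13 ± 0.0848 (adjusted p = 0.251; without 5-FU 1 by 0.25, adjusted p = 0.00517, and in the 5 libraries by 0.27, adjusted p = 0.000103).

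LMNB1, the B-type lamin that follows proliferation in many cells, went from 337 CPM in vehicle to 273 in chloroquine, 168 in 5-FU and 176 in the combination. Its log2 fold change was -0.31 ± 0.0583, -1.01 ± 0.0597 and -0.94 ± 0.0595 in that order (adjusted p = 0.000873, 5.56e-09 and 1.29e-08). LMNB2 went from 463 CPM to 406, 383 and 394. In the 8 libraries with little COL1A2, LMNA was still called under chloroquine and neither B-type lamin was, while all 3 were called under 5-FU and under the combination. LBR, the receptor that tethers B-type lamins to the inner nuclear membrane, changed by -0.94 ± 0.0523 under 5-FU and -0.77 ± 0.052 under the combination (adjusted p = 3.05e-09 and 2.28e-08).

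Of 17 genes that process lamins or bind them at the nuclear envelope, 4 rose and 4 fell under 5-FU, 6 rose and 7 fell under the combination, and 4 rose and 5 fell under chloroquine. Over all genes 60.3%, 55.4% and 39.4% were called in these comparisons, beside 8, 13 and 9 of these 17. Their medians were -0.12, -0.09 and -0.03. TMPO, which encodes the LAP2 proteins, fell under all 3 treatments (-0.44 ± 0.0591, -0.52 ± 0.0592 and -0.26 under chloroquine, 5-FU and the combination). ZMPSTE24, the protease that matures prelamin A, was not called under either drug alone (-0.11 and -0.13) and rose by 0.18 under the combination.

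**Figure D5:**
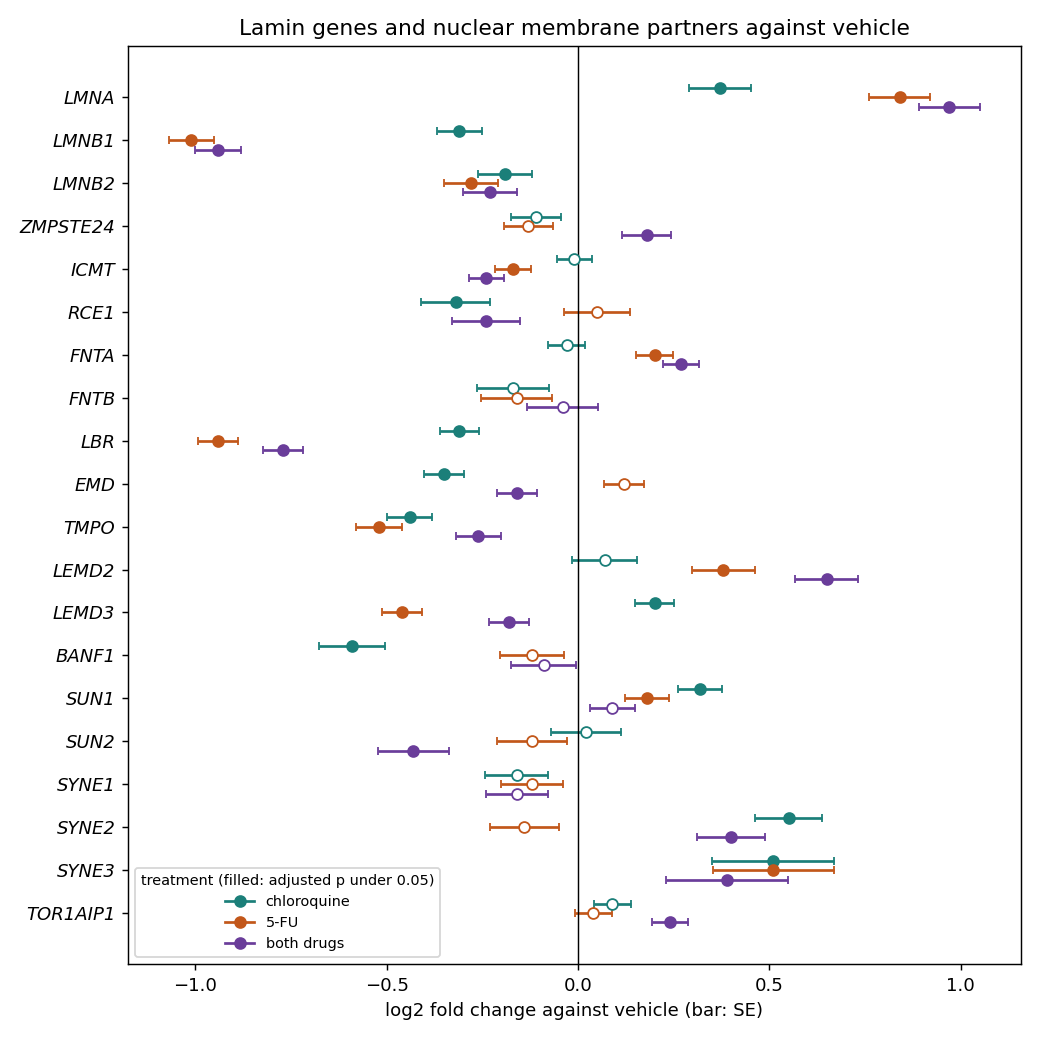
Log2 fold change against vehicle, with the SE as bars, of the 3 lamin genes and of 17 genes that process or bind lamins; filled points have an adjusted p under 0.05. LMNA is above 0 under each treatment and reaches 0.97 under both drugs, while LMNB1, at -1.01 under 5-FU, and LBR are below 0 under each.

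The combination was also set against each drug alone. Against 5-FU, 6 of the 10 members were called, 4 up (NEFL, NEFM, VIM and KRT10) and 2 down (NES and NEFH), where 38.5% of all genes were called, 20.2% up and 18.3% down. For NES and NEFH the difference reached 1 log2 unit, as it did for 4.97% of all genes. NEFH was lower by -1.01 ± 0.309 (adjusted p = 0.0181), a call that was lost without 5-FU 1 (-0.83, adjusted p = 0.0762), without combination 3 (-0.79, adjusted p = 0.0789) and in the 5 libraries (-0.92, adjusted p = 0.0915). The groups did not overlap for 6 members, against 46.6% of all genes. Libraries of 5-FU and the combination with the same number deviated together, and with the number as a block the same count of 6 members was called.

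Against chloroquine, 9 members were called in the combination, 8 up and NEFL down, where 50.6% of all genes were called (24.8% up and 25.7% down) and 60.5% had groups that did not overlap, as 9 members did. KRT8 had the largest difference (2.33 ± 0.118, adjusted p = 3.4e-09), followed by NES (1.26 ± 0.182, adjusted p = 5.09e-05), NEFH (1.14 ± 0.349, adjusted p = 0.0139) and KRT10 (1.11 ± 0.104, adjusted p = 9.58e-07), the 4 members past 1 log2 unit, where 9.11% of all genes were. The NEFH call was lost in the 8 libraries (0.98, adjusted p = 0.2), without chloroquine 1 (0.84, adjusted p = 0.0706) and without combination 1 (0.99, adjusted p = 0.0549). NEFL was lower by -0.24 ± 0.0483 (adjusted p = 0.000904), and NEFM was the member not called.

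Whether the effect of 5-FU differed with chloroquine present was tested by the interaction term, which was called for 6 of the 10 members (4 positive and 2 negative) and for 39.9% of all genes (20.6% positive and 19.3% negative). No member reached 1 log2 unit, as 9.25% of all genes did. With library size as the sole scaling, 2 were positive (NEFL and NEFM) and 3 negative (INA, NES and LMNA), and the median over all genes moved from -0.002 to -0.141. NEFL fell less under 5-FU when chloroquine was present (0.63 ± 0.0669, adjusted p = 8.25e-06). For NEFM the term was 0.82 ± 0.0845 (adjusted p = 6.94e-06), from -0.81 without chloroquine, which was called, and 0.00 with it, which was not. For INA the rise was smaller with chloroquine (-0.45 ± 0.0669, adjusted p = 0.000124), and the same held for NES (-0.91 ± 0.241, adjusted p = 0.00784). For VIM (0.27 ± 0.0609, adjusted p = 0.00289) and KRT10 (0.50 ± 0.143, adjusted p = 0.0127) the rise was larger with chloroquine, and these 2 calls and that of NES depended on the scaling or on the libraries used, as given among the results for a closer look. For KRT8 the term was 0.18 ± 0.165 (adjusted p = 0.423) and for KRT18 0.10 ± 0.098 (adjusted p = 0.455), neither of them called, but without 5-FU 1 the KRT18 term was called (0.21, adjusted p = 0.0207). For LMNA it was -0.24 ± 0.118 (adjusted p = 0.116), and it was called with library size only (-0.38, adjusted p = 0.0153), the 10 CPM filter (-0.33, adjusted p = 0.0237), a term for the 5 libraries (-0.28, adjusted p = 0.033) and without 5-FU 2 (-0.30, adjusted p = 0.0458).

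Other genes of filament biology were taken as lists, each to be read against the shares of all genes that rose and fell: 30.8% and 29.5% under 5-FU, 28.1% and 27.2% under the combination, and 20.3% and 19.1% under chloroquine. Of 15 tested cytolinkers and desmosomal or hemidesmosomal proteins, which anchor filaments, 7 rose and 4 fell under 5-FU, 8 rose and 3 fell under the combination, and 7 rose and 2 fell under chloroquine (6 and none in the 8 libraries with little COL1A2). In this list too a gene could pass the filter through a drug group alone, which weights the counts towards rises. COL17A1 and PPL were at 0.0534 and 0.359 CPM in vehicle and at 0.678 and 1.21 in 5-FU. The counts are therefore a description. DST (dystonin) rose by 1.14 ± 0.0788 under 5-FU and 1.06 ± 0.0789 under the combination (adjusted p = 2.35e-08 and 6.1e-08). ITGB4, a hemidesmosomal integrin chain, rose by 1.26 ± 0.232 under 5-FU (adjusted p = 0.00029). PLEC, plectin, stood at 135 CPM in 5-FU and 84.5 in the combination, beside 85.2 in vehicle and 105 in chloroquine, with an interaction of -0.98 ± 0.159 (adjusted p = 0.000268). PKP4, a plakophilin, fell by -0.82 ± 0.0487 and -0.70 ± 0.0485 under 5-FU and the combination (adjusted p = 5.79e-09 and 3.06e-08).

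Of 15 genes for filament transport, phosphorylation and turnover, 3 rose and 7 fell under 5-FU, where 60.3% of all genes were called in either direction. KIF5A, the neuronal kinesin that carries neurofilament subunits, rose by 1.02 ± 0.0775 under 5-FU (adjusted p = 6e-08) and by 0.38 ± 0.0798 under the combination (adjusted p = 0.000948), with an interaction of -0.80 ± 0.115 (adjusted p = 0.000102). KIF5B, the ubiquitous kinesin, fell by -0.59 ± 0.0553 under 5-FU (adjusted p = 4.79e-07). CDK5R1, the activator of the neurofilament kinase CDK5, fell by -0.89 ± 0.073 under the combination (adjusted p = 1.57e-07).

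Among the 17 tested neuronal genes, 9 rose and 2 fell under 5-FU, 10 rose and 3 fell under the combination, and 7 rose and 1 fell under chloroquine, with medians of 0.38, 0.38 and 0.17 beside 0.01, 0.006 and 0.023 over all genes. Of all genes, 30.8%, 28.1% and 20.3% rose. Here too a gene could pass the filter through a drug group alone, which weights the counts towards rises. SNAP25 and STMN2 were at 0.0903 and 0.244 CPM in vehicle and at 0.931 and 0.981 in the combination. MAP2, a dendritic microtubule protein, went from 0.746 CPM in vehicle to 7.35 in 5-FU and 7.08 in the combination (log2 3.28 ± 0.171 and 3.23 ± 0.171, adjusted p = 1.55e-09 and 2.13e-09). L1CAM, an adhesion molecule of axons, rose by 1.84 ± 0.151 under chloroquine (adjusted p = 7.97e-07). MAPT, which encodes tau, fell by -0.50 ± 0.14 under 5-FU (adjusted p = 0.00692). In the 8 libraries with little COL1A2 the counts were 11 up and 2 down under 5-FU and 10 up and 3 down under the combination.

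The list of repressors and activators of neuronal genes holds factors of both kinds and the splicing regulators PTBP1 and PTBP2. Of its 13 tested genes, 10 fell and none rose under 5-FU, and 8 fell and none rose under the combination. Under chloroquine 7 fell and 1 rose. The medians were -0.47, -0.41 and -0.26 in that order. Of all genes, 29.5%, 27.2% and 19.1% fell in these comparisons, and no test of the list was made. POU3F2, a neural POU factor, fell by -1.17 ± 0.0661 under 5-FU (adjusted p = 3.49e-09), and POU4F1, a factor of sensory neurons, fell by -0.82 ± 0.0493 under the combination (adjusted p = 7.66e-09). REST, the repressor of neuronal genes in other tissues, was at 34.1 CPM in vehicle, 36.5 in chloroquine, 23.1 in 5-FU and 34.7 in the combination.

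Of 13 tubulin and actin genes, which build the other cytoskeletal systems, 1 rose and 7 fell under 5-FU, 2 rose and 9 fell under the combination, and 1 rose and 9 fell under chloroquine, and the summed level went from 8220 to 8570 CPM in vehicle to 4860 to 5940 in 5-FU. The share of all genes that fell was 29.5%, 27.2% and 19.1%. TUBB and ACTG1 fell by -0.94 ± 0.0497 and -0.89 ± 0.0612 under 5-FU (adjusted p = 1.71e-09 and 2.39e-08), while TUBB3, the neuronal beta-tubulin, rose by 0.73 ± 0.175 (adjusted p = 0.00218). Among genes of the mesenchymal state, to which VIM is often joined, 2 of 10 rose and 2 fell under 5-FU, with FN1 (fibronectin) at 0.82 ± 0.0718 and CDH2 (N-cadherin) at -0.38 ± 0.0409 (adjusted p = 2.49e-07 and 1.87e-06).

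For the 4 members with a change of at least 1 log2 unit against vehicle, the genes with the most similar profile were found by the root mean square difference of centred log2 CPM over the 13 libraries. For KRT8 these were DNAJC22 (0.208), HSD17B14 (0.235) and GRASP (0.246), against a spread of KRT8 itself of 1.11. DNAJC22 was at 4.88 CPM in vehicle, 5.52 in chloroquine, 18.5 in 5-FU and 20.6 in the combination. For KRT10 they were RPS27L (0.1), HSCB (0.108) and TRIP4 (0.115), and RPS27L, a p53 target gene, was at 62.3, 57.7, 95.8 and 123 CPM in the same order. MAP1A (0.333), CCDC24 (0.334) and GPR162 (0.334) were closest to NES, and MAP1A, a microtubule protein of neurons, was at 14.1, 8.83, 40.3 and 17.3 CPM. NRIP2 (0.319), NFASC (0.333) and MRC2 (0.338) were closest to NEFH, where NFASC encodes neurofascin of the axon initial segment. The libraries share their depth and their treatments, so these distances are a description.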

How the data were processed

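The authors deposited a table of raw counts, with human gene symbols as rows and libraries as columns. Total RNA was made into libraries with a directional kit, per the labels' protocols. The submitters' processing notes name DESeq, without version or role, and GRCm38, a mouse build. The aligner and annotation, like the strand setting, were not given in the sources used here. For that reason the coordinates printed are those of RefSeq promoters only. Groups and replicate numbers came from the labels.

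Counts were filtered with filterByExpr, which kept 19514 genes and no less than 99.84% of any library's counts, and scaled by TMM. For 6 comparisons, group means were estimated from the 13 libraries together by the quasi-likelihood method of edgeR 4.0.16 under R 4.3.3. Genes were called at an adjusted p under 0.05 over all genes tested, and the SE is the absolute log2 fold change over the square root of F. The procedure was run on simulated counts, where it recovered only part of the changes set in. The members, the 23 gene lists and the rules were chosen with earlier results of these data known. Named genes were the 10 members, up to 2 called genes with the largest rise and 2 with the largest fall per list and comparison, if their mean log2 CPM was 0 or more, and the 3 closest profiles of members that changed by at least 1, among genes whose mean log2 CPM was 1 or more. Others, such as marker genes, KRT17, PRPH, REST and PLEC levels, were named after their values were seen.

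Alternatives were RLE size factors, library size only, DESeq2 1.42.0, limma-voom (limma 3.58.1), no filter, at least 10 CPM in 3 libraries, only the groups compared, a replicate block, removal of each library, and, for libraries with at least 100 COL1A2 counts, their removal, a term, or those alone. The last, and a block fitted on 5-FU and combination libraries only, were added after seeing the data. Only for 5-FU with the combination did the residuals of every same-numbered pair correlate above 0.1 (0.341, 0.743 and 0.339), where replicate 2 of each is a library with COL1A2. No 2 replicates agreed within sampling noise, with a chi-square per gene of 1.6 to 21.3, and 5-FU 1 was the farthest from its group.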

Additional observations from a re-analysis of the deposited data

Results flagged for a closer look

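For 6 filament genes the effect of 5-FU differed with and without chloroquine by the interaction test (edgeR, adjusted p under 0.05 over all genes tested), and 39.9% of all genes did. The log2 difference between the effects was 0.63 for NEFL, 0.82 for NEFM, 0.27 for VIM and 0.50 for KRT10. It was -0.45 for INA and -0.91 for NES. For VIM the call was lost with library size only (0.13, adjusted p = 0.0943) and in the 8 libraries with little COL1A2 (0.21, adjusted p = 0.128). For KRT10 it was lost with library size only (0.36, adjusted p = 0.0611) and in the 5 libraries with COL1A2 (0.27, adjusted p = 0.0827), and for NES in the 8 libraries (-0.86, adjusted p = 0.0574). No library stood apart from its group in the vehicle values of a member by Dixon's 95% criterion, and groups of 3 were not tested.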

How the results depend on the processing

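Over 1434 recomputed changes of members, 1359 kept their direction and their side of the threshold, 34 lost and 14 gained a call, and 27 changed sign. KRT10 under chloroquine was the sole called value among these 27 (0.23, in the 5 libraries with COL1A2), and the cause was not tested. The other 26 lay between -0.06 and 0.09. Under chloroquine, KRT18 was -0.01 with RLE size factors and DESeq2 and -0.06 without the 5 libraries, and VIM was 0.05 with library size only and 0.01 with the 10 CPM filter and without the 5 libraries. For the combination against vehicle, NEFL was 0.09 with library size only and 0 with the 10 CPM filter. Against 5-FU, INA was 0.01 with no filter and without the 5 libraries. Against chloroquine, NEFM was -0.04 without the 5 libraries and within them, and -0.02 with a term for them. The interaction of KRT18 was -0.04 with library size only.

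Leaving out each library in turn, NEFH ran from -0.58 to 0.05 and KRT18 from -0.02 to 0.02 under chloroquine, INA from -0.04 to 0.01 for the combination against 5-FU, and NEFM from -0.05 to 0.04 against chloroquine. The members called were then 4 to 5 under chloroquine, 9 to 10 under 5-FU, 8 to 9 under the combination, 5 to 8 for the combination against 5-FU, 8 to 9 against chloroquine and 6 to 7 for the interaction. Without the 5 libraries, genes called under chloroquine dropped from 7682 to 4396, with 1 chloroquine library left.

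With the replicate number as a block, 5, 9, 8, 6, 9 and 6 members were called in the order above. The block changed the calls of VIM under 5-FU and NEFH under the combination and of no other member. Fitted on 5-FU and combination libraries only, it called 6 members and 6542 genes. With library size only, called genes were 5435 up and 2410 down under chloroquine (3952 and 3730 with TMM), 8291 and 3669 under 5-FU (6003 and 5756), 7422 and 3659 under the combination (5489 and 5312) and 2379 and 5063 for the interaction (4019 and 3772). NEFH, with 6 to 56 counts, is the member whose precision depth limits most.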
